A study of Mus musculus with 9 samples.

Results

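The genes described here are 46 genes whose products act in the G2 phase of the cell cycle and in mitosis, from cyclins and mitotic kinases to kinetochore proteins, kinesins and proteins of cytokinesis. They were listed by name, with no threshold on their values but with earlier results of these data known, and each was read from the probe set that names it. Of the 46, 45 had a probe set, out of 32849 genes named on the array. For Ccnb1, which encodes cyclin B1, no probe set used here carries the name. The probe sets of Ccnf and Foxm1 each name another gene as well, Mir5134 and Tex52, and their values belong to the probe set. No member had more than 1 probe set.

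The RNA came from pmel1 CD8+ T cells, which carry a transgenic receptor for a peptide of the melanocyte protein gp100. Per the labels, Thy1.1-bearing pmel1 cells were transferred to naive congenic mice, which all then received 100 µg of the human gp100 peptide into a vein. The anti-CD27 group (3 mice) received 200 µg of the agonist antibody AT124 and the anti-PD-1/L1 group (3 mice) received 100 µg of RMP1-14 against PD-1 with 100 µg of 10F.9G2 against PD-L1, each with 200 µg of isotype control antibodies. The combination group (3 mice) received all of these antibodies without the isotype controls, 400 µg in all. Spleen cells were collected on day 4, Thy1.1+ CD8+ cells were sorted, and 1 whole-transcript array was run per mouse. Every group had peptide, no group had peptide with isotype control alone, and all comparisons are therefore between treatments. The sources used here do not state the age of the mice.

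Entry into mitosis is driven by CDK1 bound to A- and B-type cyclins, with CDC25 phosphatases and Polo-like and Aurora kinases. Kinetochores, built on centromeres, attach chromosomes to the spindle, which kinesin motors and microtubule-binding proteins assemble, and the spindle checkpoint holds the anaphase-promoting complex (APC/C) in check until all chromosomes are attached. Activated CD8+ T cells divide rapidly for several days after antigen, and transcripts of these genes accumulate in G2 and mitosis. Many of their promoters carry the cell cycle genes homology region (CHR), bound by MuvB complexes (DREAM in resting cells, and with B-MYB and FOXM1 in dividing cells), and CCAAT boxes, bound by NF-Y.

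Promoter sequences are shown first, as a feature that was not read from the arrays. Many promoters of G2 and mitosis genes carry the CHR and CCAAT boxes, so high shares were to be foreseen from the choice of the genes. Whether the motifs go with the levels on the arrays was not tested. RefSeq promoters (GRCm38.p6; 250 bases before to 50 bases after the gene's start) were found for 38 of the 46 genes. The CHR, searched as TTTGAA on both strands, was present in 29 of the 38 (76.3%), against 20.2% of the promoters of all 27025 genes in the same table. CCAAT, searched on both strands, was present in 28 of 38 (73.7%), against 41.1% of all promoters, and both motifs were in 25 of 38 (65.8%), against 7.97%. Among 81 promoters of other mitosis genes, 29 held TTTGAA (35.8%), 51 held CCAAT (63.0%) and 21 held both (25.9%). Among 32 promoters of DNA replication genes, 5 held TTTGAA (15.6%), 19 held CCAAT (59.4%) and 3 held both (9.38%). Matches of the 2 motifs were counted separately, whether or not they shared a base, and a match describes letters, not a binding site. The 200 bases before the start are printed for Ccnb2, the member with the largest difference between the combination and anti-CD27, for Cdc20, and for Mki67, on the gene's strand with matches to either motif in capitals (ATTGG is CCAAT on the other strand). They lie at chr9:70421555-70421754, chr4:118437344-118437543 and chr7:135716380-135716579, all on the minus strand.
Ccnb2: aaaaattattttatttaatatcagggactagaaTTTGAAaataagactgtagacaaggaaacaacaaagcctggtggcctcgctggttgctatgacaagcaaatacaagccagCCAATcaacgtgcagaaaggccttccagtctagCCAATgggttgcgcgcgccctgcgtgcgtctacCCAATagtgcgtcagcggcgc
Cdc20: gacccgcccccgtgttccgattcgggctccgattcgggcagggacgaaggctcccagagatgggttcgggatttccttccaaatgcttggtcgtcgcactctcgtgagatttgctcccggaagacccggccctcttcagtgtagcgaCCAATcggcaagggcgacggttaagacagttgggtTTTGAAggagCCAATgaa
Mki67: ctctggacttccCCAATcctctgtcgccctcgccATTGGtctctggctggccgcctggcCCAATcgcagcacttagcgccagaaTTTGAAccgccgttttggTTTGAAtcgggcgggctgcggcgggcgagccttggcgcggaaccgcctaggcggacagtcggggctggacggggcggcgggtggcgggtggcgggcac
The Ccnb2 stretch holds 1 TTTGAA and 3 CCAAT boxes, that of Cdc20 holds 1 and 2, and that of Mki67 holds 2 and 3. A further TTTGAA of Ccnb2 begins at base 5 after the start and is not printed.

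The anti-PD-1/L1 arrays stood apart from the other 6 in their background and positive controls, but not in their negative controls. On the log2 scale, background control probe sets averaged 3.25 ± 0.04 on the combination arrays (SD, n = 3), 3.27 ± 0.06 on those of anti-CD27 and 4.06 ± 0.08 on those of anti-PD-1/L1. Positive control probe sets were at 6.81 ± 0.04, 6.70 ± 0.02 and 5.75 ± 0.19. The 5222 negative control probe sets were at 2.78 ± 0.07, 2.92 ± 0.06 and 2.77 ± 0.05. Background here and below is the mean of 23 background control probe sets, which ranged from 1.03 to 8.48 on anti-PD-1/L1 3. The negative controls lay lower than that mean, so levels on background and bounds depend on this choice of controls. Cd8a and Thy1, which encode proteins used in the sort, were high in all groups, with means ± SD of 10.53 ± 0.07 and 8.39 ± 0.02, 10.77 ± 0.02 and 8.44 ± 0.07, and 9.21 ± 0.37 and 7.41 ± 0.25 in the same order. Treatment and this difference between arrays cannot be told apart, so combination and anti-CD27 are compared first.

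On average over the 45 genes, mitotic transcripts were highest in the combination, lower in anti-CD27 and lowest in anti-PD-1/L1. Group means of 38 of the 45 genes had this order (14.6% of all probe sets did). Within the first 2 groups a single array set much of the distance. The mean log2 level of the 45 genes was 5.99, 5.96 and 6.87 on combination arrays 1, 2 and 3, 5.66, 5.21 and 5.65 on anti-CD27 arrays 1, 2 and 3, and 4.70, 4.77 and 4.77 on the anti-PD-1/L1 arrays. Group means were 6.27 ± 0.52 (SD, n = 3), 5.51 ± 0.26 and 4.75 ± 0.04. No combination array was as low as any anti-CD27 array, and no anti-CD27 array was as low as any anti-PD-1/L1 array. In RNA of a sorted population, fewer cells in G2 and mitosis and less mitotic RNA per cell cannot be told apart.

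**Figure D1:**
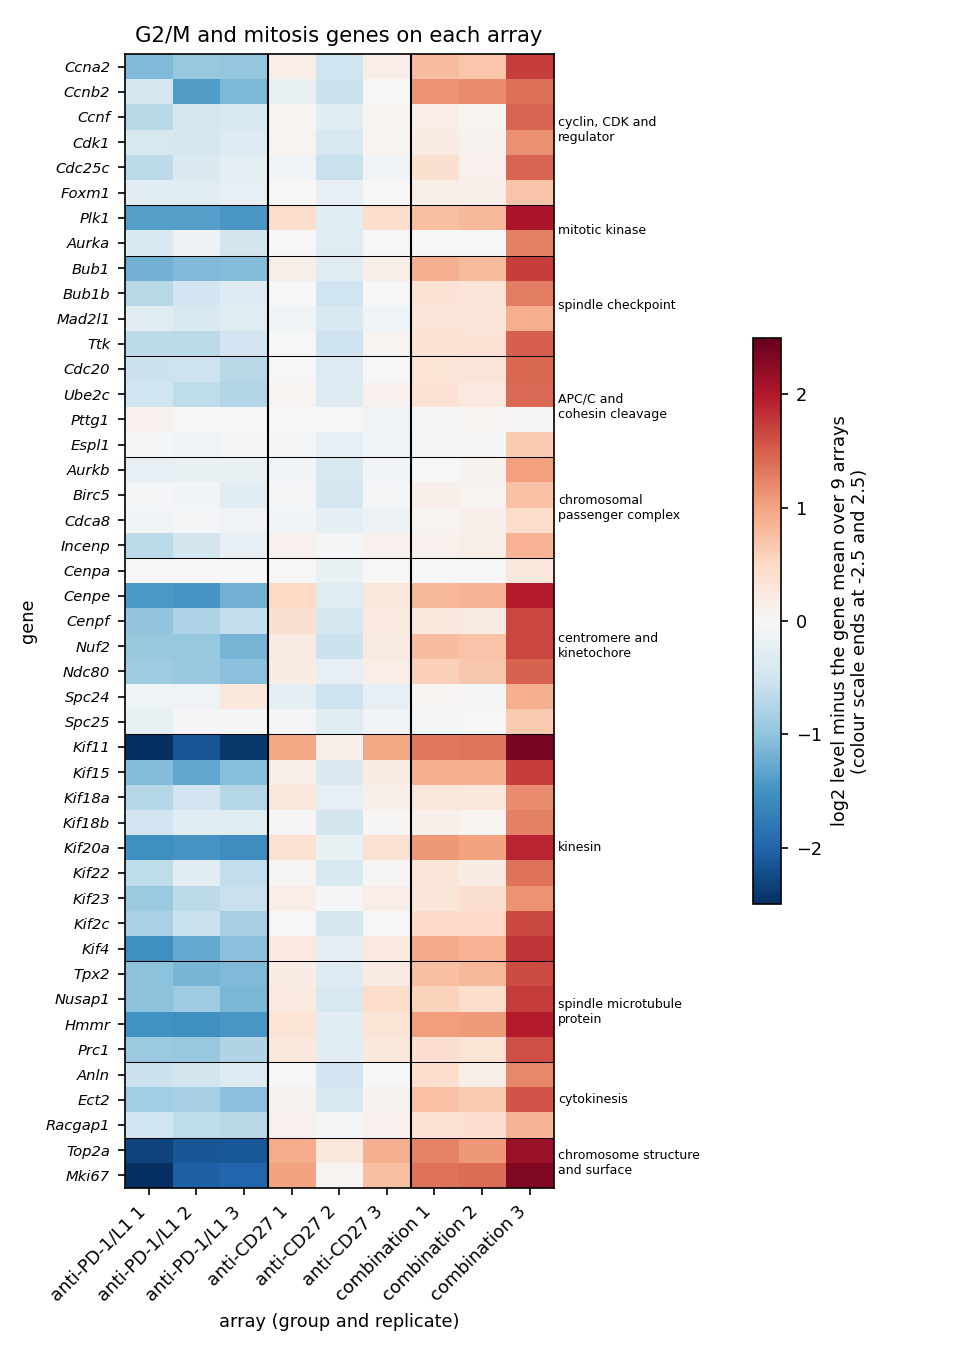
Log2 level of each of the 45 genes (vertical axis, grouped by role) on each of the 9 arrays (horizontal axis), as the difference from the gene's own mean over the arrays. Combination 3 is the darkest red column in nearly every gene, anti-CD27 2 is the palest or bluest of its group, and Pttg1 shows almost no colour.

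Combination 3 was the highest of the 9 arrays in 44 of the 45 genes, which held for 5.33% of all 31617 probe sets tested. It lay more than 0.5 (log2) above both other combination arrays in 40 of the 45, a gap that only 164 of all 31617 tested probe sets showed (0.519%); 32 further ones of the 164 were other mitosis genes. Anti-CD27 2 was the lowest array of its group in 44 of 45, against 19.6% of all probe sets. Combination 1 and 2, by contrast, differed by 0.30 at most and by a median of 0.06, and anti-CD27 1 and 3 by 0.25 at most. Over the 45 genes, combination 3 was a median of 0.92 above the mean of combination 1 and 2, anti-CD27 2 was a median of 0.46 below the mean of anti-CD27 1 and 3, and the remaining arrays of the 2 groups were a median of 0.29 apart. Both of the remaining combination arrays were above both of the remaining anti-CD27 arrays in 36 of 45 genes (22.0% of all probe sets). The mean of 11 T cell genes was 9.16, 9.15 and 9.08 on the combination arrays and 9.23, 9.24 and 9.22 on those of anti-CD27, and the positive controls were at 6.83, 6.83 and 6.76 and at 6.72, 6.68 and 6.71. Whether combination 3 and anti-CD27 2 differ from their groups through the mice, the sort or the arrays was not tested, and the difference between combination and anti-CD27 is therefore given below with and without both. That pair of arrays was chosen after their values in these same genes had been seen, and 2 arrays remain in each of these groups without it. Such a choice lowers the spread within the groups, so calls made without the pair describe that fit and do not test the genes.

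**Figure D2:**
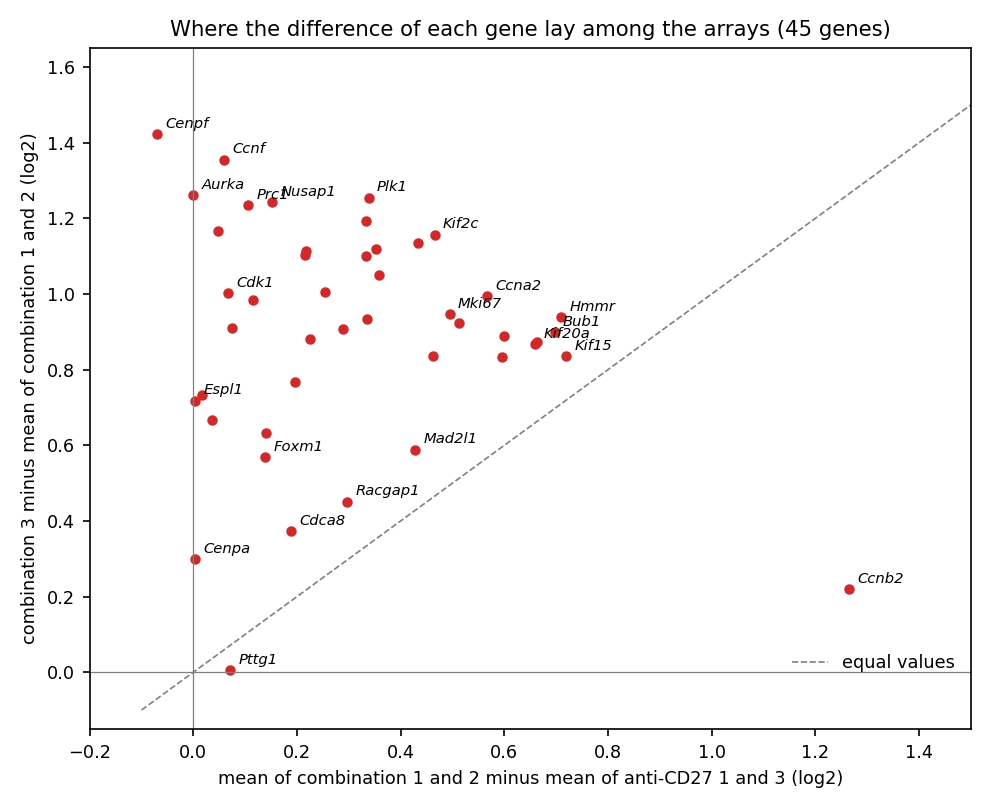
For each of the 45 genes, the difference between the mean of combination 1 and 2 and the mean of anti-CD27 1 and 3 (horizontal axis, log2) against the distance of combination 3 above the mean of combination 1 and 2 (vertical axis, log2). All but Ccnb2 and Pttg1 lie above the dashed line of equal values, Ccnb2 is alone at 1.26 on the horizontal axis, and Cenpf and Aurka lie near 0 there with 1.42 and 1.26 on the vertical axis.

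Combination against anti-CD27 asks what PD-1 and PD-L1 antibodies, in place of isotype controls, added to the CD27 agonist. All 45 differences were above 0 (47.6% of all probe sets were), with a median of 0.75 on the log2 scale against -0.0031 over all probe sets, and every combination array was above every anti-CD27 array in 36 of 45 genes (12.1% of all probe sets). Yet 1 gene of 45 passed limma's test at an adjusted p under 0.05, Ccnb2, where 1.25% of all probe sets were called higher, and none was called lower (0.519% of all probe sets). At an unadjusted p under 0.05, 33 of the 45 were higher (6.56% of all probe sets) and 0 lower. Without combination 3 and anti-CD27 2 the median difference was 0.29 and the genes called were Bub1, Hmmr and Kif20a (3 of 45, where 0.196% of all probe sets were called higher). Without combination 3 alone the median was 0.44 and Bub1 was the 1 gene called (0.69% of all probe sets), and without anti-CD27 1 or 2 or combination 1 or 2 the count was 0. With arrays weighted by their fit 13 were called, where 5.97% of all probe sets were called higher. Those weights were lowest for the anti-PD-1/L1 arrays (0.24 to 0.50), with 0.95 for combination 3 and 2.21 for anti-CD27 2. When the 50% of probe sets with the lowest means were left out 9 were called, where 3.68% of the rest were called higher.

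**Figure D3:**
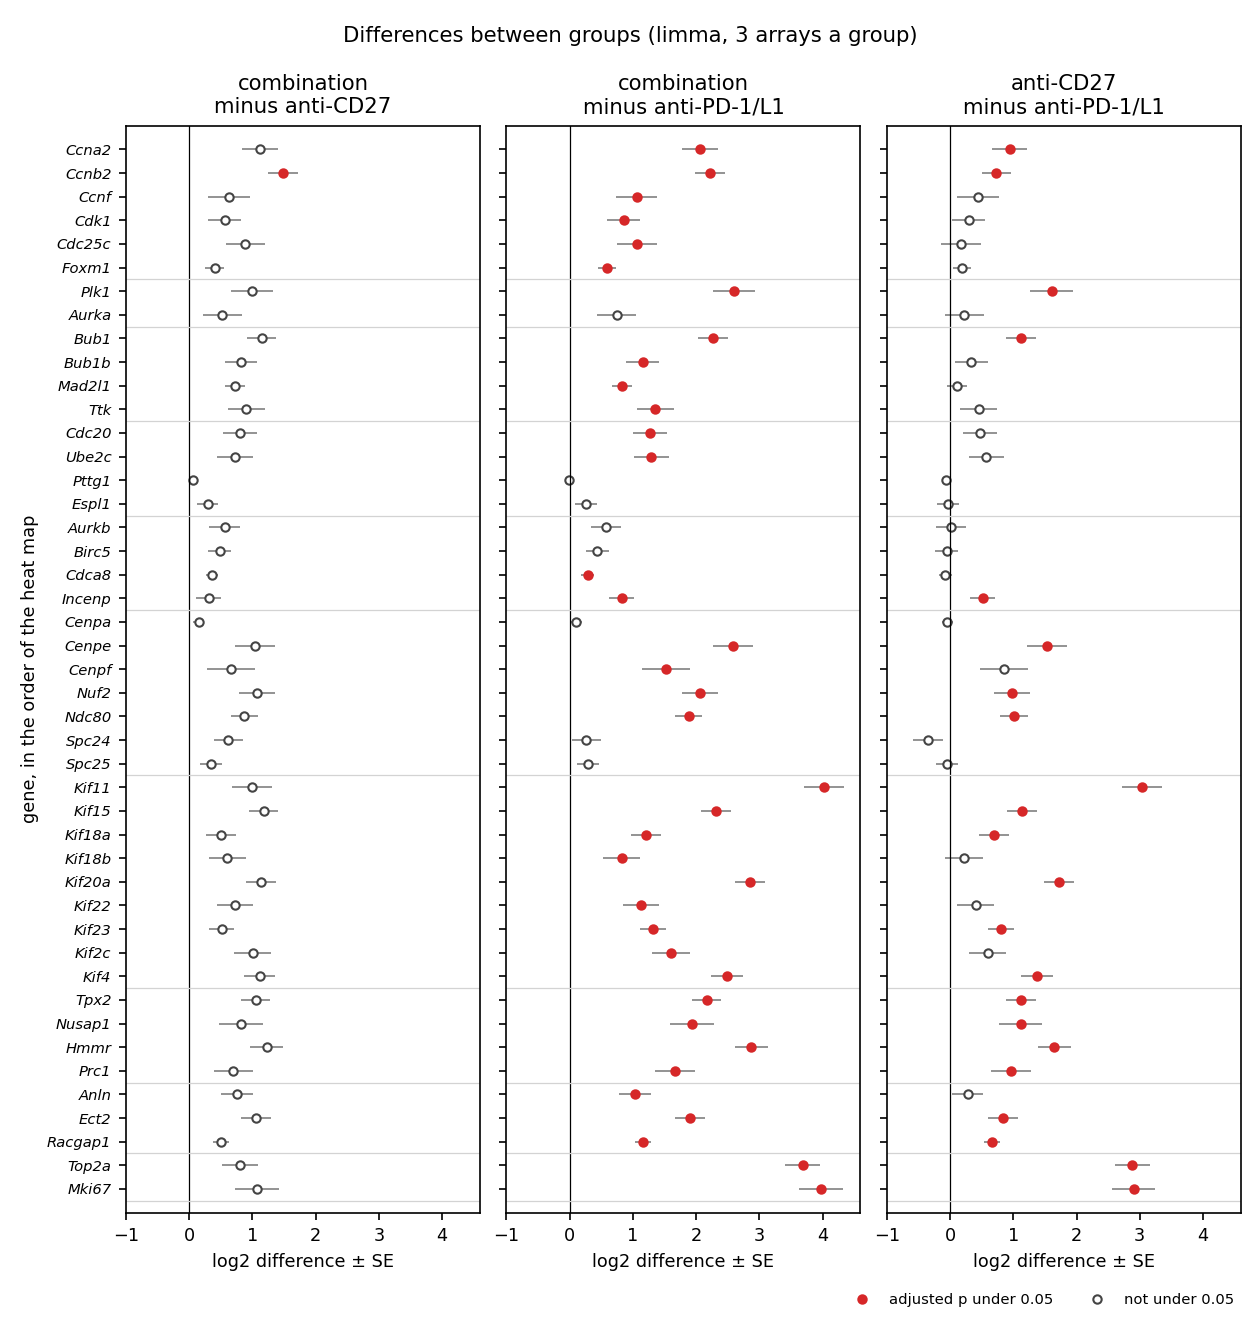
Log2 difference between groups with limma's SE (horizontal axis) for each of the 45 genes (vertical axis), 3 arrays a group; filled points have an adjusted p under 0.05. The combination minus anti-CD27 panel has all points above 0 but only Ccnb2 filled, while 37 and 22 points are filled in the panels against anti-PD-1/L1.

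Among cyclins, CDK1 and their regulators, Ccnb2, which encodes cyclin B2, stood out. Ccnb2 was at 8.51, 8.56 and 8.75 on the combination arrays, 7.19, 6.83 and 7.36 on those of anti-CD27 and 6.95, 5.98 and 6.24 on those of anti-PD-1/L1. The combination arrays lay close together and all above every anti-CD27 array, and anti-PD-1/L1 1 was above anti-CD27 2. Ccnb2 rose by 1.49 ± 0.24 (log2 difference ± SE), 2.80-fold (limma, adjusted p = 0.0185). The call was lost when anti-CD27 1 or 2 or any single combination array was left out (adjusted p up to 0.0857), with differences of 1.34 to 1.60 over the arrays left out. Without combination 3 and anti-CD27 2 the difference was 1.26 (adjusted p = 0.276). Combination 3 was 0.22 above the mean of the other combination arrays in Ccnb2, the smallest such gap of the 6 genes of this role. Ccna2, which encodes cyclin A2, differed by 1.12 ± 0.28 (adjusted p = 0.111), and Cdc25c, the phosphatase that activates CDK1, by 0.89 ± 0.31 (adjusted p = 0.325). Without the 2 arrays those differences were 0.57 and 0.33.

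Foxm1, a transcription factor of mitotic genes, had the smallest difference of this role. Foxm1 was at 5.34, 5.32 and 5.90 on the combination arrays, 5.20, 4.97 and 5.18 on those of anti-CD27 and 4.92, 4.89 and 4.98 on those of anti-PD-1/L1. Every combination array was above every anti-CD27 array, by a margin that combination 3 widened, and the difference was 0.40 ± 0.15 (adjusted p = 0.351), or 0.14 without the 2 arrays. Cdk1, the kinase itself, was at 5.61, 5.52 and 6.57 in the combination and 5.50, 5.02 and 5.50 in anti-CD27, a difference of 0.56 ± 0.26 (adjusted p = 0.560) that was 0.07 without the 2 arrays. Ccnf, which encodes the F-box protein cyclin F, went from 0.62 ± 0.33 to 0.06 in the same way.

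**Figure D4:**
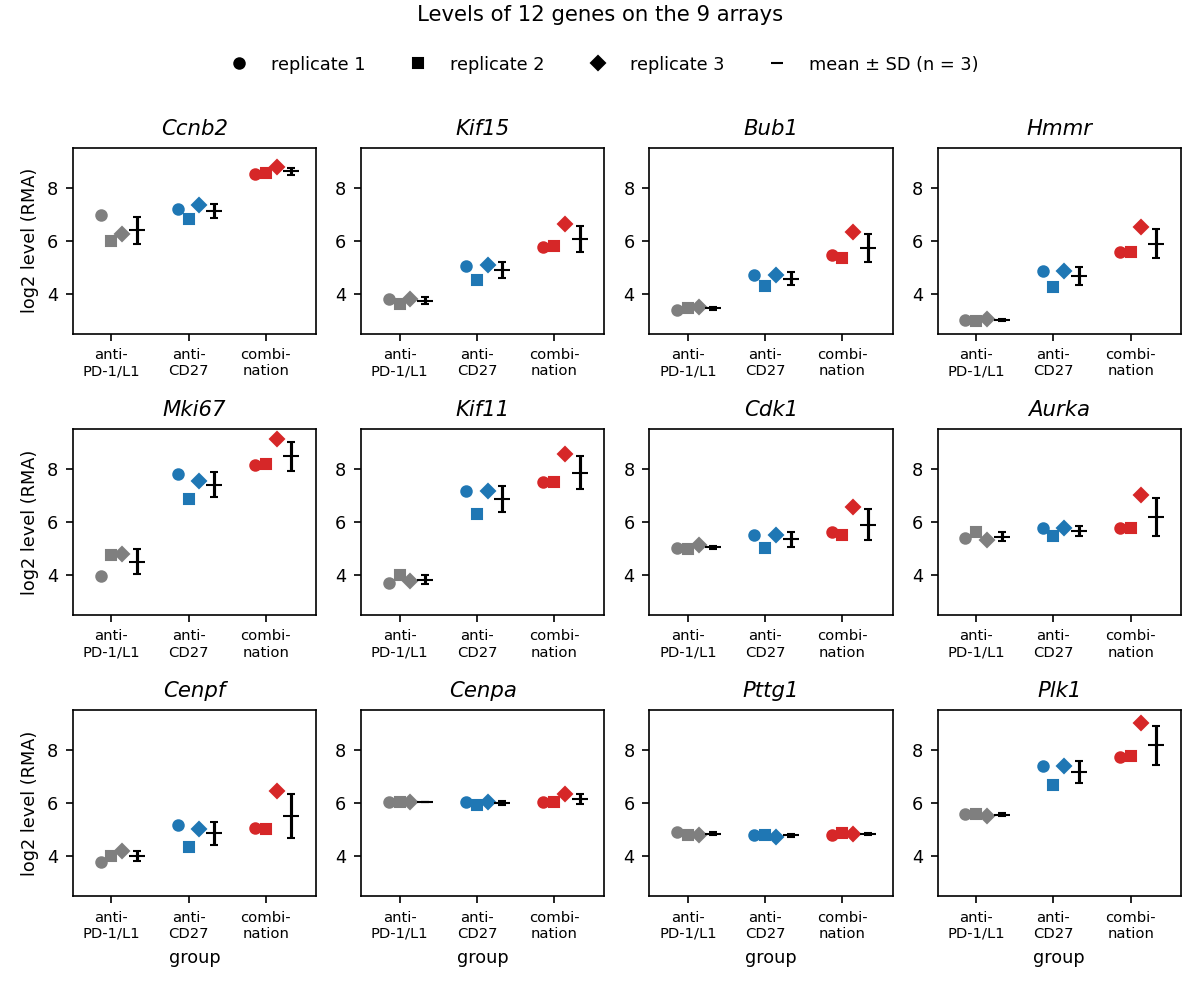
Log2 level (vertical axis) of 12 genes on each of the 9 arrays by group (horizontal axis), with the marker shape giving the replicate and the bar the mean ± SD of 3 arrays. Ccnb2 has 3 close combination arrays, Cenpf and Aurka have 2 combination arrays at the level of anti-CD27 1 and 3 and 1 far above, and Pttg1 is level throughout.

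Plk1 and Aurka encode the Polo-like and Aurora A kinases, which act at spindle poles and in mitotic entry. Plk1 was at 7.72, 7.77 and 9.00 on the combination arrays, 7.41, 6.69 and 7.41 on those of anti-CD27 and 5.59, 5.60 and 5.51 on those of anti-PD-1/L1. The groups did not overlap for Plk1, and the difference between combination and anti-CD27 was 1.00 ± 0.33 (adjusted p = 0.285), or 0.34 (adjusted p = 0.182) without the 2 arrays. Aurka was at 5.77, 5.77 and 7.03 on the combination arrays, 5.77, 5.46 and 5.77 on those of anti-CD27 and 5.38, 5.63 and 5.31 on those of anti-PD-1/L1. Combination 1 and 2 and anti-CD27 1 and 3 shared the value 5.77, so that the difference of 0.52 ± 0.31 (adjusted p = 0.772) came from combination 3 and anti-CD27 2.

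All 4 spindle checkpoint genes had combination arrays above all anti-CD27 arrays (12.1% of all probe sets did), with a median difference of 0.86, or 0.39 without the 2 arrays. Bub1, a checkpoint kinase at kinetochores, differed most. Bub1 was at 5.47, 5.37 and 6.32 on the combination arrays, 4.72, 4.28 and 4.72 on those of anti-CD27 and 3.39, 3.48 and 3.50 on those of anti-PD-1/L1. No arrays overlapped between any groups. Bub1 differed by 1.14 ± 0.23 (adjusted p = 0.0540) and was called without combination 3 alone (0.84, adjusted p = 0.0454) and without both arrays (0.70, adjusted p = 0.0415). Mad2l1, which encodes the MAD2 protein that binds CDC20, differed least in this role. Mad2l1 was at 7.003, 6.99 and 7.58 on the combination arrays, 6.56, 6.29 and 6.57 on those of anti-CD27 and 6.41, 6.29 and 6.38 on those of anti-PD-1/L1. Its combination arrays were all above the others, and anti-CD27 overlapped with anti-PD-1/L1. The difference from anti-CD27 was 0.72 ± 0.16 (adjusted p = 0.0682), or 0.43 (adjusted p = 0.116) without the 2 arrays. Ttk, the MPS1 kinase, and Bub1b, which encodes BUBR1, differed by 0.90 ± 0.29 and 0.82 ± 0.26 (adjusted p = 0.254 and 0.242), or by 0.35 and 0.34 without the 2 arrays.

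Genes of the APC/C and of cohesin cleavage included the most level of the 45. Cdc20, the APC/C activator that the checkpoint inhibits, was at 5.79, 5.77 and 6.88 on the combination arrays, 5.44, 5.11 and 5.44 on those of anti-CD27 and 4.91, 4.94 and 4.75 on those of anti-PD-1/L1. These groups did not overlap, and the combination was 0.81 ± 0.27 above anti-CD27 (adjusted p = 0.279), or 0.33 (adjusted p = 0.333) without the 2 arrays. Ube2c, the APC/C's ubiquitin-conjugating enzyme, differed by 0.72 ± 0.28 (adjusted p = 0.396), or by 0.21 without the 2 arrays. Pttg1, which encodes securin, the inhibitor of the protease separase, was the exception among the 45. Pttg1 was at 4.79, 4.89 and 4.84 on the combination arrays, 4.81, 4.81 and 4.73 on those of anti-CD27 and 4.93, 4.81 and 4.81 on those of anti-PD-1/L1. All arrays lay between 4.73 and 4.93, the groups overlapped, and the difference was 0.06 ± 0.06, or 0.07 without the 2 arrays. Espl1, separase itself, was at 4.82, 4.82 and 5.53 in the combination and 4.82, 4.67 and 4.81 in anti-CD27, so that combination 3 alone was above the rest and the difference of 0.29 ± 0.17 became 0.0038 without the 2 arrays.

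The chromosomal passenger complex, which corrects faulty attachments and acts in cytokinesis, had the lowest median difference of the 10 roles, 0.42 (0.13 without the 2 arrays). Aurkb, its kinase Aurora B, was at 5.64, 5.70 and 6.65 on the combination arrays, 5.55, 5.21 and 5.55 on those of anti-CD27 and 5.42, 5.43 and 5.43 on those of anti-PD-1/L1. Combination and anti-CD27 arrays did not overlap, the difference was 0.56 ± 0.24 (adjusted p = 0.504), and it was 0.12 without the 2 arrays. Incenp, the scaffold of the complex, differed least. Incenp was at 6.17, 6.21 and 6.92 on the combination arrays, 6.17, 6.04 and 6.17 on those of anti-CD27 and 5.39, 5.59 and 5.85 on those of anti-PD-1/L1. Combination 1 and anti-CD27 1 and 3 shared the value 6.17, and the difference of 0.31 ± 0.20 (adjusted p = 0.837) was 0.02 without the 2 arrays. Birc5 (survivin) and Cdca8 (borealin) differed by 0.48 ± 0.18 and 0.36 ± 0.10 (adjusted p = 0.379 and 0.165), or by 0.14 and 0.19 without the 2 arrays.

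Centromere and kinetochore genes ranged from 0.15 to 1.08. Nuf2, which with Ndc80, Spc24 and Spc25 forms the NDC80 complex that grips microtubules, differed most. Nuf2 was at 5.65, 5.58 and 6.54 on the combination arrays, 5.10, 4.33 and 5.10 on those of anti-CD27 and 3.94, 3.94 and 3.71 on those of anti-PD-1/L1. The groups did not overlap, and the difference was 1.08 ± 0.28 (adjusted p = 0.135), or 0.51 (adjusted p = 0.159) without the 2 arrays. The other members of the same complex differed by 0.87 ± 0.22 (Ndc80), 0.62 ± 0.23 (Spc24) and 0.34 ± 0.17 (Spc25), with adjusted p from 0.113 to 0.643. Without the 2 arrays they differed by 0.46, 0.23 and 0.04. Cenpa, the histone H3 variant of centromeres, hardly varied. It had the same deposited value, 6.05, on the 3 anti-PD-1/L1 arrays and anti-CD27 1 and 3, with combination 1 and 2 at 6.05 as well, anti-CD27 2 at 5.91 and combination 3 at 6.35. The difference was 0.15 ± 0.09 (adjusted p = 0.757), or 0.0026 without the 2 arrays. Cenpf, a kinetochore and nuclear matrix protein, was at 5.06, 5.02 and 6.46 in the combination and 5.19, 4.35 and 5.03 in anti-CD27, and its difference of 0.66 ± 0.38 turned to -0.07 without the 2 arrays. Cenpe, a kinetochore motor, differed by 1.05 ± 0.32 (adjusted p = 0.210), or by 0.43 without the 2 arrays.

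All 9 kinesins had every combination array above every anti-CD27 array (12.1% of all probe sets did). Their median difference, 0.99, was the highest of the 10 roles. Without the 2 arrays it was 0.36 and no longer the highest, with the spindle checkpoint genes at 0.39. Kif15, a motor that helps KIF11 keep the spindle bipolar, differed most. Kif15 was at 5.78, 5.79 and 6.62 on the combination arrays, 5.05, 4.53 and 5.08 on those of anti-CD27 and 3.82, 3.60 and 3.82 on those of anti-PD-1/L1. The groups did not overlap, and Kif15 differed by 1.17 ± 0.24, 2.26-fold, with an adjusted p of 0.0502, or by 0.72 (adjusted p = 0.0657) without the 2 arrays. Kif20a, a motor of the central spindle, differed by 1.13 ± 0.24 (adjusted p = 0.0611) and was called without the 2 arrays (0.66, adjusted p = 0.0391). Kif4, a chromosome-bound motor, differed by 1.11 ± 0.25 (adjusted p = 0.0752) and Kif2c, which depolymerizes microtubules at kinetochores, by 1.01 ± 0.29 (adjusted p = 0.190), which became 0.66 and 0.47 without the 2 arrays. Kif18a, which dampens chromosome movements, differed least. Kif18a was at 4.04, 4.02 and 4.94 on the combination arrays, 4.02, 3.57 and 3.90 on those of anti-CD27 and 3.06, 3.28 and 3.05 on those of anti-PD-1/L1. Combination 1 and 2 were just above anti-CD27 1, and the difference of 0.51 ± 0.24 (adjusted p = 0.570) was 0.07 without the 2 arrays. Kif11, Kif18b, Kif22 and Kif23 differed by 0.99 ± 0.32, 0.60 ± 0.30, 0.73 ± 0.29 and 0.51 ± 0.20, with adjusted p from 0.254 to 0.625. Without the 2 arrays their differences were 0.36, 0.05, 0.22 and 0.20.

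Spindle microtubule proteins had a median difference of 0.93 (0.37 without the 2 arrays). Hmmr, a receptor for hyaluronan that also binds spindle microtubules, had the second largest difference of all 45 genes. Hmmr was at 5.57, 5.59 and 6.52 on the combination arrays, 4.87, 4.26 and 4.87 on those of anti-CD27 and 3.01, 2.99 and 3.07 on those of anti-PD-1/L1. The groups were far apart for Hmmr, which in anti-PD-1/L1 lay below the background controls. It differed by 1.22 ± 0.26, 2.34-fold (adjusted p = 0.0616), and was called without the 2 arrays (0.71, adjusted p = 0.0306). Tpx2, the activator of Aurora A on the spindle, differed by 1.05 ± 0.23 (adjusted p = 0.0710), and Nusap1, which bundles spindle microtubules, by 0.82 ± 0.34 (adjusted p = 0.468), which became 0.60 and 0.15 without the 2 arrays. Prc1, which crosslinks the central spindle, differed least. Prc1 was at 5.82, 5.74 and 7.02 on the combination arrays, 5.68, 5.13 and 5.68 on those of anti-CD27 and 4.47, 4.46 and 4.66 on those of anti-PD-1/L1. Combination arrays were above all anti-CD27 arrays, though combination 2 only just, and the difference was 0.70 ± 0.31 (adjusted p = 0.537), or 0.11 without the 2 arrays.

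The 3 cytokinesis genes also had every combination array above every anti-CD27 array (12.1% of all probe sets did). Ect2, which activates RhoA at the division plane, was at 6.11, 6.03 and 6.96 on the combination arrays, 5.47, 4.99 and 5.47 on those of anti-CD27 and 4.51, 4.54 and 4.34 on those of anti-PD-1/L1. It differed by 1.05 ± 0.24 (adjusted p = 0.0782), or 0.60 (adjusted p = 0.0873) without the 2 arrays. Racgap1, a partner of ECT2 at the central spindle, differed less but with a small spread. Racgap1 was at 6.55, 6.59 and 7.02 on the combination arrays, 6.27, 6.11 and 6.27 on those of anti-CD27 and 5.66, 5.53 and 5.46 on those of anti-PD-1/L1. Its difference was 0.50 ± 0.12 (adjusted p = 0.108), or 0.30 without the 2 arrays, and Anln, the actin-binding protein anillin, differed by 0.75 ± 0.25 (adjusted p = 0.279), or by 0.29 without them.

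Mki67 and Top2a, whose products act on the chromosomes themselves, had a median difference of 0.94 (0.37 without the 2 arrays). Mki67 encodes Ki-67, a coat of mitotic chromosomes used as a marker of dividing cells. Mki67 was at 8.14, 8.18 and 9.11 on the combination arrays, 7.79, 6.86 and 7.54 on those of anti-CD27 and 3.95, 4.74 and 4.80 on those of anti-PD-1/L1. Combination arrays were above all anti-CD27 arrays, which were far above anti-PD-1/L1, and the difference from anti-CD27 was 1.08 ± 0.35 (adjusted p = 0.256), or 0.49 without the 2 arrays. Top2a, the topoisomerase that untangles sister chromatids, followed the same order. Top2a was at 8.01, 7.86 and 8.94 on the combination arrays, 7.70, 7.04 and 7.65 on those of anti-CD27 and 4.46, 4.63 and 4.65 on those of anti-PD-1/L1. It differed by 0.80 ± 0.28 (adjusted p = 0.318), or 0.25 without the 2 arrays.

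Other genes of division were read from lists chosen by name. Of 39 measured genes of DNA replication and S phase, 25 were called higher in the combination than in anti-CD27 (1.25% of all probe sets were) and 0 lower, with a median of 0.79, and every combination array was above every anti-CD27 array in 38 (12.1% of all probe sets). Rrm2, a subunit of ribonucleotide reductase, rose by 1.52 ± 0.19 (adjusted p = 0.00789), Mcm3 and Mcm5, of the replicative helicase, by 1.30 ± 0.09 and 1.27 ± 0.16 (adjusted p = 0.000741 and 0.00712), and Pole2, of DNA polymerase epsilon, by 1.19 ± 0.13 (adjusted p = 0.00511), and these calls held with any 1 array left out. Over the arrays, combination 3 was a median of 0.29 above combination 1 and 2 in the replication genes and over 0.5 above both in 5 of 39, while combination 1 and 2 were a median of 0.64 above anti-CD27 1 and 3. For the mitotic genes those medians were 0.92 and 0.29, with 40 of 45 over 0.5. The difference between the lists was not tested. Without the 2 arrays, 10 of 39 replication genes were called higher (0.196% of all probe sets), with a median of 0.64.

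**Figure D5:**
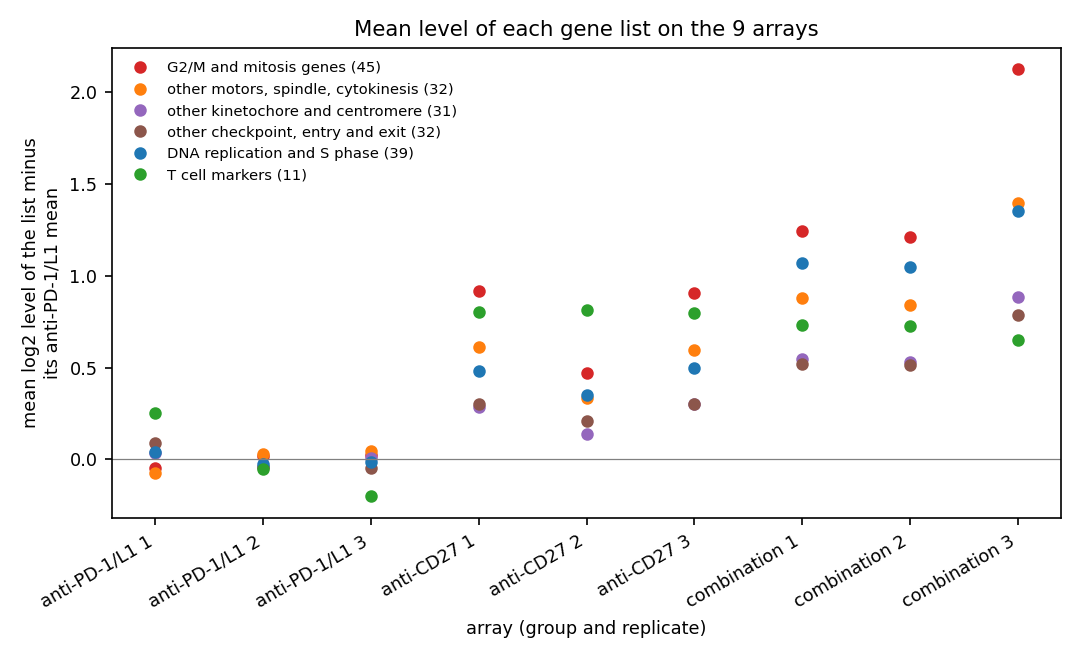
Mean log2 level of 6 gene lists on each array (horizontal axis), as the difference from the list's mean over the anti-PD-1/L1 arrays (vertical axis); the number of genes is in brackets. The 45 mitotic genes reach 2.12 on combination 3 against 1.24 and 1.21 on combination 1 and 2, the replication genes 1.35 against 1.07 and 1.05, while the T cell markers stay between 0.65 and 0.81 on the 6 arrays of those groups and anti-CD27.

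Further mitosis genes outside the 46 had lower median differences than the 0.75 of the 45, and more of them were called, where 1.25% of all probe sets were called higher. Among other kinetochore and centromere genes, 4 of 31 were called higher (Cenpn, Knstrn, Cenpm and Cenph, by 1.06 ± 0.20, 0.74 ± 0.09, 0.73 ± 0.11 and 0.68 ± 0.13) with a median of 0.32. Among other checkpoint, entry and exit genes, 5 of 32 were called higher, among them Pbk, a mitotic kinase, by 1.22 ± 0.19, Fbxo5, the APC/C inhibitor EMI1, by 0.87 ± 0.16, Wee1, the kinase that restrains CDK1, by 0.71 ± 0.12 and Cks1b, a CDK subunit, by 0.64 ± 0.12, and the list's median was 0.21. Among other motors, spindle and cytokinesis genes, 2 of 32 were called higher, Cep55, of the final cut between daughter cells, by 1.08 ± 0.19 and Sass6, of centriole assembly, by 0.42 ± 0.08, with a median of 0.46. Of 11 DREAM and MYB-MuvB factors, 3 were called higher, E2f8 by 1.08 ± 0.16, Mybl2, which encodes B-MYB, by 0.62 ± 0.12 and Tfdp1 by 0.58 ± 0.11, with a median of 0.20. None of these 4 lists had a gene called lower. Of the 13 genes named, the calls of all but Knstrn were lost without some single array (adjusted p up to 0.179), anti-CD27 1 or 2 in each case. Without the 2 arrays 0, 1, 0 and 1 genes were called higher (0.196% of all probe sets), in the order of the lists above, with medians of 0.25, 0.19, 0.20 and 0.13.

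Lists of markers of other spleen cells had low mean levels, with single genes well above background controls. Mean log2 levels of the CD4 T cell, B cell, neutrophil and erythroid lists (4, 7, 7 and 8 genes) were 3.36 to 3.45, 3.07 to 3.10, 2.52 to 2.62 and 3.60 to 3.68 in the combination and 3.42 to 3.55, 3.12 to 3.16, 2.55 to 2.60 and 3.64 to 3.67 in anti-CD27. In anti-PD-1/L1 they were 3.76 to 3.88, 3.55 to 3.62, 2.94 to 3.00 and 4.11 to 4.35, with higher background controls there. Of the genes of these 4 lists, 2 of 4, 4 of 7, 5 of 7 and 3 of 8 were at or below the background controls in all groups. Their highest genes were Zbtb7b at 5.58 to 5.64 in the combination and 5.76 to 5.81 in anti-CD27, Cd79b at 5.35 to 5.44 and 5.59 to 5.70, Mpo at 3.44 to 3.66 and 3.54 to 3.66, and the probe set of Hba-a1 and Hba-a2 at 4.44 to 4.57 and 4.29 to 4.44. On the anti-PD-1/L1 arrays Zbtb7b, Cd79b and that probe set reached 6.41, 6.10 and 5.97. Germinal centre and plasma cell, macrophage and monocyte, dendritic cell and NK cell lists (5, 10, 7 and 7 genes) had means between 3.00 and 4.54 on the combination and anti-CD27 arrays, with 1, 5, 5 and 4 genes at or below the background controls in all groups. Their highest genes, which activated CD8+ T cells also express, were Xbp1 at a mean of 7.27 in the combination and 6.83 in anti-CD27, Ly6c2 at 11.9 and 11.1, Itgax at 7.49 and 4.77, and Nkg7 at 10.8 and 10.6. Over these 8 lists, 2 genes were called between combination and anti-CD27, Itgax and Eomes, both higher and both also genes of activated CD8+ T cells. Their part in the differences was not tested.

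The combination and anti-PD-1/L1 differ by CD27 agonism, in place of isotype control antibodies. Of the 45 genes, 37 were called higher in the combination and 0 lower, where 19.2% of all probe sets were called higher and 53.1% lower. The median difference was 1.29, against -0.26 over all probe sets, and every combination array was above every anti-PD-1/L1 array in 40 genes (19.1% of all probe sets). Without combination 3 the median was 0.98 and 36 were called higher (18.1% of all probe sets), and 38 without anti-CD27 2 as well (17.3%). With the mean of the positive controls as a covariate 1 gene was called, Mki67 (6.77, adjusted p = 0.0428). That covariate lowered the calls over the whole array too, to 2.95% of all probe sets called higher. The positive controls were at 5.59 to 5.96 on the anti-PD-1/L1 arrays and 6.68 to 6.83 on all others. In both comparisons with anti-PD-1/L1, the fit with this covariate therefore cannot separate it from the group, and neither its differences nor its lost calls decide between them. After a further quantile normalization Cenpa was called lower (-0.30, adjusted p = 0.0178), as were 28.0% of all probe sets. T cell genes were also higher in the combination, with 7 of 11 called higher, 1 lower and a median of 0.67, while 6 of 7 B cell and 8 of 8 erythroid markers were called lower. Their part in the mitotic genes' difference was not tested. Kif11, the motor that pushes spindle poles apart, differed most. Kif11 was at 7.50, 7.51 and 8.56 on the combination arrays, 7.14, 6.31 and 7.15 on those of anti-CD27 and 3.70, 4.02 and 3.76 on those of anti-PD-1/L1. In anti-PD-1/L1 its mean was not above the background controls. Counted from those controls, it rose by at least 3.79, 13.8-fold (measured difference 4.03 ± 0.32, limma, adjusted p = 1.23e-05). Such bounds, here and below, do not allow for the lower positive controls of the anti-PD-1/L1 arrays. Mki67 and Top2a rose by 3.98 ± 0.35 (15.8-fold, adjusted p = 2.03e-05) and 3.69 ± 0.28 (12.9-fold, adjusted p = 1.03e-05). The smallest differences were those of Pttg1 (-0.0071 ± 0.06), Cenpa (0.10 ± 0.09) and Espl1 (0.26 ± 0.17), with adjusted p of 0.915, 0.298 and 0.197.

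By role, calls higher in the combination than in anti-PD-1/L1 are given here, where 19.2% of all probe sets were called higher. All 6 genes of the cyclin group, all 4 of the checkpoint, all 9 kinesins, all 4 spindle proteins and all 3 cytokinesis genes were called. Of the passenger complex, Cdca8 and Incenp were called (2 of 4), of the APC/C group Cdc20 and Ube2c (2 of 4), and of the kinases Plk1 but not Aurka (0.75 ± 0.31, adjusted p = 0.0538). Of the kinetochore genes, Cenpe, Cenpf, Nuf2 and Ndc80 rose, while Spc24 was at 6.47, 6.36 and 7.30 against 6.32, 6.33 and 6.68 in anti-PD-1/L1 (0.27 ± 0.23, adjusted p = 0.318). Ccnb2 rose by 2.22 ± 0.24 (4.65-fold, adjusted p = 5.43e-05), Plk1 by 2.60 ± 0.33, Kif20a by 2.86 ± 0.24, Tpx2 by 2.17 ± 0.23, Ect2 by 1.90 ± 0.24 and Cdc20 by 1.28 ± 0.27. Leaving out a single array ended the calls of Ccnf (without anti-PD-1/L1 1, adjusted p = 0.0579), of Kif18b (without any 1 anti-PD-1/L1 array, up to 0.0876) and of Cdca8 (without any 1 of those or combination 3, up to 0.0708). In anti-PD-1/L1, 13 of the 45 genes had a mean at or below the background controls. In all groups, 0 of the 45 and 13854 of all 31617 probe sets did, and the share of all probe sets in anti-PD-1/L1 alone was not counted. Counted from those controls, the rise was at least 1.83 for Hmmr, 1.66 for Bub1, 1.86 for Nuf2, 2.00 for Kif15 and 0.27 for Kif18a. The remaining genes named in full above were called as well (Foxm1 0.59 ± 0.15, Mad2l1 0.83 ± 0.16, Prc1 1.66 ± 0.31, Racgap1 1.17 ± 0.12), except Aurkb (0.57 ± 0.24, adjusted p = 0.0596).

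Anti-CD27 and anti-PD-1/L1 were compared as the 2 treatments given alone. Of the 45 genes, 22 were called higher in anti-CD27 and 0 lower (17.3% and 53.4% of all probe sets), with a median of 0.60 against -0.26 over all probe sets. Every anti-CD27 array was above every anti-PD-1/L1 array in 26 genes (17.6% of all probe sets), and the reverse held for Spc24. Combination 3 and anti-CD27 2 had been chosen on their values in these genes. Without both, 36 of 45 were called higher (15.5% of all probe sets) with a median of 0.72. Without combination 3 alone 30 were called higher (17.0% of all probe sets) and Spc24 lower (limma, adjusted p = 0.0376; 16176 of 31617 probe sets were). Combination 3 is in neither of these groups, so the differences stayed the same, -0.35 for Spc24. Leaving it out changed only the spread that limma estimates from all arrays. With the positive controls as a covariate none was called, where 3.58% of all probe sets were called higher, and after a further quantile normalization Cenpa (-0.40) and Spc24 (-0.74) were called lower (adjusted p = 0.00478 and 0.0285; 27.1% of all probe sets were). Of the T cell genes 7 of 11 were called higher in anti-CD27 and 1 lower, with a median of 0.52, and 6 of 7 B cell and 8 of 8 erythroid markers were called lower. Kif11 again differed most, by at least 2.80, 6.98-fold (measured difference 3.04 ± 0.32, adjusted p = 5.74e-05). Mki67 rose by 2.90 ± 0.35 (7.48-fold, adjusted p = 0.000116) and Top2a by 2.88 ± 0.28 (7.38-fold, adjusted p = 4.04e-05). The smallest values were those of Spc24 (-0.35 ± 0.23, adjusted p = 0.199), Cdca8 (-0.08 ± 0.10) and Pttg1 (-0.07 ± 0.06).

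The counts by role depended on the arrays used. Both Mki67 and Top2a, all 4 spindle proteins, 6 of 9 kinesins, 3 of 7 kinetochore genes and 2 of 3 cytokinesis genes were called higher in anti-CD27 than in anti-PD-1/L1, against 2 of 6 in the cyclin group, 1 of 4 in the checkpoint, 1 of 4 in the passenger complex and 0 of 4 in the APC/C group. Of all probe sets, 17.3% were called higher. Without combination 3 and anti-CD27 2, the counts were 9 of 9 kinesins, 4 of 7 kinetochore genes, 3 of 3 cytokinesis genes, 5 of 6 in the cyclin group, 4 of 4 in the checkpoint, 1 of 4 in the passenger complex and 2 of 4 in the APC/C group (15.5% of all probe sets). Those 2 arrays were chosen on their values in these genes, and combination 3 is in neither group compared. The counts without them therefore describe that fit and do not test the roles. Among the 6 kinesins, Kif18a was called (0.70 ± 0.24, adjusted p = 0.0269), but its anti-CD27 mean of 3.83 was below the background controls of the anti-PD-1/L1 arrays, so that no bound on its difference can be given. Plk1 rose by 1.61 ± 0.33 (adjusted p = 0.00253), Kif20a by 1.73 ± 0.24 and Cenpe, on background in anti-PD-1/L1, by at least 0.66. Bub1, Kif15, Nuf2 and Hmmr, also on background there, rose by at least 0.51, 0.82, 0.78 and 0.60. Ccnb2 rose by 0.73 ± 0.24 (adjusted p = 0.0213) with overlapping arrays, since anti-PD-1/L1 1 was at 6.95 and anti-CD27 2 at 6.83, and lost its call without anti-PD-1/L1 2 or 3 or anti-CD27 1 or 3 (adjusted p up to 0.0754). Calls that single anti-CD27 or anti-PD-1/L1 arrays ended in the same way were those of Ccna2, Incenp, Kif18a, Nusap1 and Prc1 (up to 0.0538, 0.133, 0.0876, 0.0636 and 0.0725), while Aurka, Mad2l1 and Foxm1 did not pass (0.22 ± 0.31, 0.11 ± 0.16 and 0.19 ± 0.15). The comparisons with anti-PD-1/L1 share those 3 arrays, and their values are therefore given side by side and not counted against each other.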

How the data were processed

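The authors deposited a table of log2 values, with 1 value for each array and probe set. Per the submitters' processing notes, oligo 1.38.0 and RMA produced them; the sources used here do not give the genome build behind the probe sets. RMA corrects background, normalizes arrays to a common distribution and summarises probes, so an array with unlike RNA quality is pulled to the others and low levels are compressed. Of 72688 probe sets, 6732 were controls and 33206 named no gene in the platform annotation; per gene the one with the highest mean was used, which gave 31617 probe sets, 1146 of them naming several genes. Members and lists were chosen with earlier results of these data known.

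The deposited log2 values were fitted in R 4.3.3 by limma 3.58.1, with 1 mean per group over 9 arrays (6 residual degrees of freedom), moderated two-sided tests, no filter and Benjamini-Hochberg adjustment over 31617 probe sets; a probe set was called at an adjusted p under 0.05. Mice were individual, so replicates are separate animals, and 3 arrays a group limit the precision. A group mean at or below its 23 background control probe sets was replaced, for a bound, by the higher of both on each array. A bound of this kind does not allow for other differences between arrays, such as that of the positive controls. Genes were described in full if called between the combination and anti-CD27 or if they had the largest or smallest difference there within their role; other members are given by range and count. The 3 largest and 3 smallest differences are named against anti-PD-1/L1, and up to 4 genes per list. Alternatives were other sets of arrays, a replicate term, a further quantile normalization, array weights, another prior, other choices of probe set, a filter on low means, the positive controls as a covariate, and each array left out; leaving out combination 3 and anti-CD27 2 together was added after the data were seen. The test was tested on simulated data. The simulated noise was independent between probe sets and arrays, so it held no shared shift like that of combination 3. RefSeq promoters were matched by symbol.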

Additional observations from a re-analysis of the deposited data

How the results depend on the processing

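The limits are the 3 arrays a group, 1 high and 1 low array in the combination and anti-CD27, and the unlike background and positive controls of the anti-PD-1/L1 arrays. Levels near the background controls give only bounds. Between the combination and anti-CD27, the 1 gene called became 13 with array weights and 9 (of 44) without the lowest 50% of probe sets (5.97% of all and 3.68% of the rest were called higher). The count was 3 with a replicate block and 3 without combination 3 and anti-CD27 2 (274 and 62 of 31617 probe sets). It was 2 with a trended robust prior (361 of 31617) and 2 of 43 with probe sets naming 1 gene, by either choice (392 and 390 of 30702). With only the 6 arrays compared it stayed at 1, where 1271 of 31617 probe sets were called higher. With a single array left out the count was 0 to 1 (137 to 963 of 31617 probe sets were called higher) and the median difference 0.44 to 0.98. Without combination 3 and anti-CD27 2 the median was 0.29. Deviations of same-numbered arrays from their group means showed no strong shared shift over all probe sets (correlations from -0.194 to 0.161). Arrays with unlike numbers had correlations from -0.178 to 0.156. Whether same-numbered mice were handled together cannot be read from these values. The replicate block moved no other count by over 1.5 times. Against anti-PD-1/L1, the 37 genes higher in the combination became 34 to 40 with an array left out (5534 to 6449 of 31617 probe sets were called higher). They became 1 with the positive control covariate (934 of 31617), under which the median was 2.03. After quantile normalization 1 was lower (28.0% of all probe sets). The 22 higher in anti-CD27 became 16 to 30 with an array left out (4919 to 6045 of 31617 probe sets), 36 without both arrays (4902) and 0 with the covariate (1131, median 1.21). The 30 came without combination 3, which is in neither of the groups compared there. Those lower became 2 after quantile normalization (27.1% of all probe sets) and 0 to 1 with an array left out (14677 to 16828 of 31617). Signs turned as follows; the cause was not tested. For combination minus anti-CD27, Cenpf was at -0.0695 without both arrays. For combination minus anti-PD-1/L1, Ccnb2 was at -0.0572 with the covariate, Cenpa at -0.30 and Spc24 at -0.21 after quantile normalization, and Pttg1 at 0.0893 after quantile normalization and 0.0061 with array weights. With an array left out Pttg1 ran from -0.0310 to 0.0331 and Spc24 from -0.0281 (without combination 3, also with anti-CD27 2 out) to 0.44. For anti-CD27 minus anti-PD-1/L1, quantile normalization gave -0.28 for Mad2l1, -0.16 for Aurkb, 0.0475 for Pttg1, 0.10 for Espl1 and 0.32 for Spc25. The covariate gave -1.31 for Ccnb2, 0.31 for Espl1, 0.0704 for Cdca8, 0.0858 for Cenpa, 0.83 for Spc24 and 0.67 for Spc25. With an array left out Espl1 ran from -0.0539 to 0.0167, Birc5 from -0.120 to 0.0829 and Spc25 from -0.102 to 0.0334, the upper values being those without anti-CD27 2, with or without combination 3, and Aurkb from -0.0435 (without anti-CD27 1 or 3) to 0.128.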

Other observations

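Equal deposited values on different arrays were common. Anti-CD27 1 and 3 had the same value for 22 of the 45 genes, against 1 for anti-CD27 1 and 2, 0 for anti-CD27 2 and 3, and 1 for combination 1 and 2. Over all 31617 probe sets, 14.4% had equal values on anti-CD27 1 and 3, 19.5% on anti-CD27 1 and 2 and 12.04% on combination 1 and 2. Over all probe sets, anti-CD27 1 and 3 were thus no more alike than the other arrays of their group (SD of the difference 0.133, against 0.137 and 0.129). In the 45 genes they were more alike, a median of 0.0026 apart, with anti-CD27 2 a median of 0.46 below their mean.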
